A study of Mus musculus with 20 samples.

Results

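Gpsm2, Fam19a3, Ppp1r3b and Abtb2 are 4 genes, of 23992 gene symbols measured, whose RNA was lower in mouse regulatory T cells (Tregs) given IL-2-REH than in Tregs given IL-2. That difference was measured in these libraries and it chose the members, so it is described here and not tested. Each gene was represented by 1 RefSeq transcript and was followed in all 20 RNA-seq libraries, 15 from Tregs and 5 from CD8+ T cells. Cells came from spleen and lymph node. Tregs were purified from B6-Foxp3EGFP mice as GFP-positive cells after CD4+ selection, and CD8+ T cells were selected from C57BL/6J mice, while the strain field of the labels gives C57BL/6N for every sample. Cells were left unstimulated or received 200 nM IL-2 or 200 nM IL-2-REH ex vivo for 90 min or 4 hr, which gave 5 groups per cell type, with 3 libraries per group for Tregs and 1 for CD8+ T cells. The animals' ages, and whether replicates came from separate mice, are not given in the sources used here, so p-values measure the spread between these libraries. Unstimulated cells were collected at 0 hr, so that the effect of a cytokine and that of time in culture cannot be told apart in a comparison with them. Cell type and mouse line also changed together.

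IL-2 acts through a receptor made of a beta chain and the common gamma chain, and JAK kinases on these chains activate the transcription factor STAT5. Tregs, which restrain immune responses, also carry the alpha chain CD25 at all times and depend on IL-2 for their maintenance, whereas resting CD8+ T cells carry little of it. IL-2-REH is an IL-2 mutein with substitutions on the face that contacts the common gamma chain, a partial agonist that gives a submaximal STAT5 signal even when it saturates the receptor. The 4 genes belong to unrelated families. Gpsm2 encodes LGN, which binds inhibitory G protein alpha subunits through GoLoco motifs and the microtubule-binding protein NuMA through its tetratricopeptide repeats, and orients the mitotic spindle. Fam19a3, now named Tafa3, encodes a small secreted protein of a chemokine-like family known mainly from brain. Ppp1r3b encodes a glycogen-targeting subunit of protein phosphatase 1 that is known best from liver. Abtb2 encodes a protein with ankyrin repeats and a BTB domain, a fold that many adaptors of CUL3 ubiquitin ligases share.

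On GRCm38 (mm10), the Gpsm2 transcript NM_029522 lies on the minus strand of chromosome 3 at 108678638-108722309 with 15 exons. Fam19a3 (NM_183224) lies on the same chromosome and strand at 104767406-104777547 with 7 exons. Ppp1r3b (NM_177741) lies on the plus strand of chromosome 8 at 35375741-35388139 with 2 exons, and Abtb2 (NM_178890) on the plus strand of chromosome 2 at 103566310-103718423 with 17 exons. Promoter windows of 300 bases from RefSeq (GRCm38.p6) matched 3 of the 4 genes. A part of STAT5 in these genes was not tested, and the windows are shown because IL-2 activates that factor. They are written 5′ to 3′ along the gene's strand, from chr3:108722250-108722549 (minus strand) for Gpsm2, chr3:104777498-104777797 (minus strand) for Fam19a3 and chr2:103566060-103566359 (plus strand) for Abtb2. Capitals mark matches on either strand to TTCNNNGAA, the spacing bound by STAT5. They also mark the CCAAT box, which reads ATTGG from the other strand. The GC box GGGCGG is marked too, and it reads CCGCCC from the other strand.
Gpsm2: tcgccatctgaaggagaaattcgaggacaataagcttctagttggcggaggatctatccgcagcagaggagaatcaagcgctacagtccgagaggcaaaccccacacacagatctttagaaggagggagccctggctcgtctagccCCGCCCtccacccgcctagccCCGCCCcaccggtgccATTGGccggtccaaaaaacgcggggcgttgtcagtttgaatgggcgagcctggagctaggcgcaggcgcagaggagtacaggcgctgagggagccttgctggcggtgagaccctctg
Fam19a3: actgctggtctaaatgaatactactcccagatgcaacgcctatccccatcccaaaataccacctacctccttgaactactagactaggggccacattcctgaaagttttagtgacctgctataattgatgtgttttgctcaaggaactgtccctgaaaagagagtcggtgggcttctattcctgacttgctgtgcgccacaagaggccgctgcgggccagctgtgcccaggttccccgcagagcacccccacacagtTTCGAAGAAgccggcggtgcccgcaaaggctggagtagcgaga
Abtb2: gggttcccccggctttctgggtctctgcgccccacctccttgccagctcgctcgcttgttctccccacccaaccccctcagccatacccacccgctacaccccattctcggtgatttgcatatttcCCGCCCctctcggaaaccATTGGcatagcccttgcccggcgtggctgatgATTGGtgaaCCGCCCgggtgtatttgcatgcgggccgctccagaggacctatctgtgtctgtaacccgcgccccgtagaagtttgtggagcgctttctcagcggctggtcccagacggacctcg
Positions are counted from the start site of each window, which was the first base of the transcript for Fam19a3 and Abtb2 and lay 10 bases inside NM_029522 for Gpsm2. The Fam19a3 window held TTCGAAGAA at positions +8 to +16, and TTCNNNGAA occurred in 8.30% of all 32851 promoter windows. Neither of the other windows held that motif. Gpsm2 held ATTGG at -67 to -63 and CCGCCC at -104 to -99 and at -83 to -78. Abtb2 held ATTGG at -106 to -102 and at -74 to -70, and CCGCCC at -124 to -119 and at -65 to -60. CCAAT was in 37.4% and GGGCGG in 35.7% of all windows on either strand. None of the 3 windows held TTCNNNNGAA (6.95% of all windows), the cyclic AMP response element TGACGTCA (1.79%) or the AP-1 motif TGANTCA (7.81%), all searched on both strands. GC content was 61.0% for Gpsm2, 53.7% for Fam19a3 and 62.3% for Abtb2, beside a median of 52.7% over all windows. A match is a description of letters and not a measured binding site.

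Libraries held 20201392 to 63903764 reads on genes in Tregs and 38201667 to 45189835 in CD8+ T cells. Levels are RPKM, reads scaled by the transcript's exon length and by the library's mapped reads. The 5 Treg markers (Foxp3, Il2ra, Ctla4, Ikzf2 and Cd4) summed to 505 to 1061 RPKM in Treg libraries and 12.6 to 28.3 in CD8+ T cell libraries, and Cd8a and Cd8b1 summed to 4.46 to 12.7 and 282 to 728. Summed markers of macrophages (4 of 5 measured) spanned 13.4 to 61.4 RPKM in unstimulated Tregs and 7.14 to 35.7 over the cytokine groups, and those of B cells 2.36 to 15.96 and 1.76 to 16.8. C1qa, a macrophage marker, was at 0 RPKM in at least 1 Treg library and not in all of them. The 3 erythroid markers spanned 4.13 to 130.5 RPKM in unstimulated and 2.88 to 110.7 in cytokine-treated Tregs. The part of these cells in the results was not tested. The library labelled unstimulated replicate 1 stood apart. Ramp3, a receptor activity-modifying protein, was at 219 RPKM there, at 2.91 or less in the other unstimulated Tregs and at 70.4 to 239 in the 12 cytokine-treated ones. Each of the 4 members was at its lowest unstimulated value in this same library, and results are given with and without it.

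Gpsm2 rose with cytokine and was graded between unstimulated, IL-2-REH and IL-2 Tregs at both times. In unstimulated Tregs it was at 1.34, 1.95 and 1.42 RPKM in replicates 1, 2 and 3. At 90 min it was at 16.8, 12.6 and 10.2 RPKM with IL-2 and at 6.22, 3.34 and 2.84 with IL-2-REH. At 4 hr it was at 7.72, 10.03 and 7.82 RPKM with IL-2 and at 3.14, 4.25 and 2.98 with IL-2-REH. The IL-2-REH libraries thus lay between the other groups at each time without overlap. The order of the group means (RPKM ± SD, n = 3) was unstimulated (1.57 ± 0.330), IL-2-REH at 4 hr (3.46 ± 0.694), IL-2-REH at 90 min (4.13 ± 1.83), IL-2 at 4 hr (8.53 ± 1.31) and IL-2 at 90 min (13.2 ± 3.32), and of these neighbours the IL-2-REH groups overlapped. Averaged over both cytokines, the log2 fold change against unstimulated Tregs was 2.36 (SE 0.20) at 90 min (edgeR quasi-likelihood test with Benjamini-Hochberg adjustment, adjusted p = 0.000174) and 1.83 (SE 0.19) at 4 hr (adjusted p = 0.000467 in the same edgeR test). From 90 min to 4 hr of cytokine it fell by 0.52 on the log2 scale (SE 0.14, adjusted p = 0.0385, edgeR). That call was lost whichever replicate number was left out. Without replicate 1, whose IL-2 value at 90 min was the highest of all, the change was -0.27 with an adjusted p of 0.197 (edgeR). It was -0.66 without replicate 2 (adjusted p = 0.209, edgeR) and -0.59 without replicate 3 (adjusted p = 0.525, edgeR). Both limma fits lost the call too (adjusted p = 0.183 and 0.214), and the adjusted p ranged from 0.0110 to 0.525 over all alternatives. Fitted against unstimulated cells and described only, the log2 fold change was 3.21 (SE 0.22) with IL-2 and 1.51 (SE 0.21) with IL-2-REH at 90 min, and 2.52 (SE 0.22) and 1.15 (SE 0.21) at 4 hr. In these bulk libraries, a change in RNA per cell and a change in the share of cells that express a gene cannot be told apart.

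Exons of Gpsm2 share 203 bases, 5.80% of their length, with Clcc1, a chloride channel gene on the opposite strand. Whether counting used strand is not given in the sources used here, so reads in that stretch could belong to either gene. Clcc1 itself had group means of 7.52 to 8.64 RPKM over the 5 Treg groups, a range far narrower than that of Gpsm2. Fam19a3 exons share 275 bases, 6.37% of their length, with Gm43584 on the same strand, which was not analysed here, and Ppp1r3b and Abtb2 overlapped no annotated exon of another gene.

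Fam19a3 was the least abundant of the 4 genes, and its level was higher at 4 hr than at 90 min. Unstimulated Tregs had 0.309, 0.765 and 0.469 RPKM, from 83, 241 and 123 reads. With IL-2 it reached 2.097, 1.87 and 1.22 RPKM at 90 min and 3.95, 5.42 and 3.41 at 4 hr. With IL-2-REH it was at 0.924, 0.840 and 0.511 RPKM at 90 min and 1.07, 1.15 and 0.922 at 4 hr. IL-2-REH libraries overlapped the unstimulated ones at 90 min and lay above all of them at 4 hr. The means ranked from unstimulated (0.515 ± 0.231 RPKM, n = 3, SD) through IL-2-REH at 90 min (0.759 ± 0.218), IL-2-REH at 4 hr (1.05 ± 0.118) and IL-2 at 90 min (1.73 ± 0.456) to IL-2 at 4 hr (4.26 ± 1.04), and neighbours overlapped among the 3 lowest groups and nowhere else. Over both cytokines, the log2 fold change from unstimulated was 1.31 (SE 0.24, adjusted p = 0.0218, edgeR) at 90 min and 2.11 (SE 0.25, adjusted p = 0.000825, edgeR) at 4 hr. Without unstimulated replicate 3 the value at 90 min was 1.28 and no longer passed (adjusted p = 0.215, edgeR), and over all alternatives its adjusted p went from 5.79e-06 to 0.62. The rise from 90 min to 4 hr was 0.79 (SE 0.18, adjusted p = 0.0262, edgeR). Against unstimulated, as a description, the log2 fold change was 1.91 (SE 0.27) with IL-2 and 0.72 (SE 0.26) with IL-2-REH at 90 min, and 3.15 (SE 0.28) and 1.07 (SE 0.26) at 4 hr.

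Ppp1r3b rose with cytokine at both times, and with IL-2-REH its libraries overlapped the unstimulated ones at 4 hr. Its unstimulated values were 1.09, 1.31 and 1.24 RPKM. IL-2 libraries had 5.20, 6.55 and 4.33 RPKM at 90 min and 4.30, 5.80 and 3.88 at 4 hr. IL-2-REH libraries had 2.51, 2.51 and 2.04 RPKM at 90 min and 1.81, 1.89 and 1.17 at 4 hr. The 90 min IL-2-REH libraries lay above every unstimulated library, while at 4 hr replicate 3 fell within the unstimulated range. In order, the means (RPKM ± SD, n = 3) were 1.21 ± 0.109 unstimulated, 1.62 ± 0.394 with IL-2-REH at 4 hr, 2.35 ± 0.267 with IL-2-REH at 90 min, 4.66 ± 1.01 with IL-2 at 4 hr and 5.36 ± 1.12 with IL-2 at 90 min, and the lowest pair and the highest pair overlapped. The log2 fold change over both cytokines was 1.69 (SE 0.19, adjusted p = 0.000896, edgeR) at 90 min and 1.21 (SE 0.19, adjusted p = 0.00508, edgeR) at 4 hr. Between the times it differed by -0.48 (SE 0.14), with an adjusted p of 0.0503 in edgeR without a replicate block and 0.0270 with the replicate block (0.0119 to 0.525 over all alternatives). Described against unstimulated cells, the log2 fold change was 2.29 (SE 0.21) with IL-2 and 1.09 (SE 0.21) with IL-2-REH at 90 min, and 1.999 (SE 0.21) and 0.41 (SE 0.21) at 4 hr.

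Abtb2 was the most abundant member in every group, and its IL-2-REH level was back in the unstimulated range at 4 hr. Unstimulated Tregs had 9.01, 15.04 and 13.2 RPKM. With IL-2 it was at 48.1, 39.1 and 36.1 RPKM at 90 min and at 20.5, 35.8 and 40.1 at 4 hr. With IL-2-REH it was at 24.4, 23.2 and 22.2 RPKM at 90 min and at 11.02, 15.1 and 12.98 at 4 hr. Unstimulated, IL-2-REH and IL-2 libraries did not overlap at 90 min, and at 4 hr IL-2-REH and unstimulated libraries did. Means (RPKM ± SD, n = 3) went from 12.4 ± 3.09 unstimulated and 13.04 ± 2.06 with IL-2-REH at 4 hr to 23.3 ± 1.11 with IL-2-REH at 90 min, 32.1 ± 10.3 with IL-2 at 4 hr and 41.1 ± 6.25 with IL-2 at 90 min. Among these neighbours, IL-2-REH at 4 hr and at 90 min were the pair that did not overlap. Over both cytokines, the log2 fold change was 1.47 (SE 0.21, adjusted p = 0.00452, edgeR) at 90 min. At 4 hr it was 0.78 (SE 0.20) and missed the threshold (adjusted p = 0.0519, edgeR), and it was 0.77 (SE 0.17, adjusted p = 0.0151) in the edgeR fit with the replicate block and 0.82 (adjusted p = 0.00968, edgeR) without replicate 1, with adjusted p from 0.00391 to 0.4995 over all alternatives. It fell by 0.69 on the log2 scale from 90 min to 4 hr (SE 0.16, adjusted p = 0.0272, edgeR). For the separate cytokines, as a description, log2 fold changes from unstimulated were 1.88 (SE 0.23) with IL-2 and 1.06 (SE 0.23) with IL-2-REH at 90 min, and 1.47 (SE 0.23) and 0.09 (SE 0.23) at 4 hr.

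**Figure D1:**
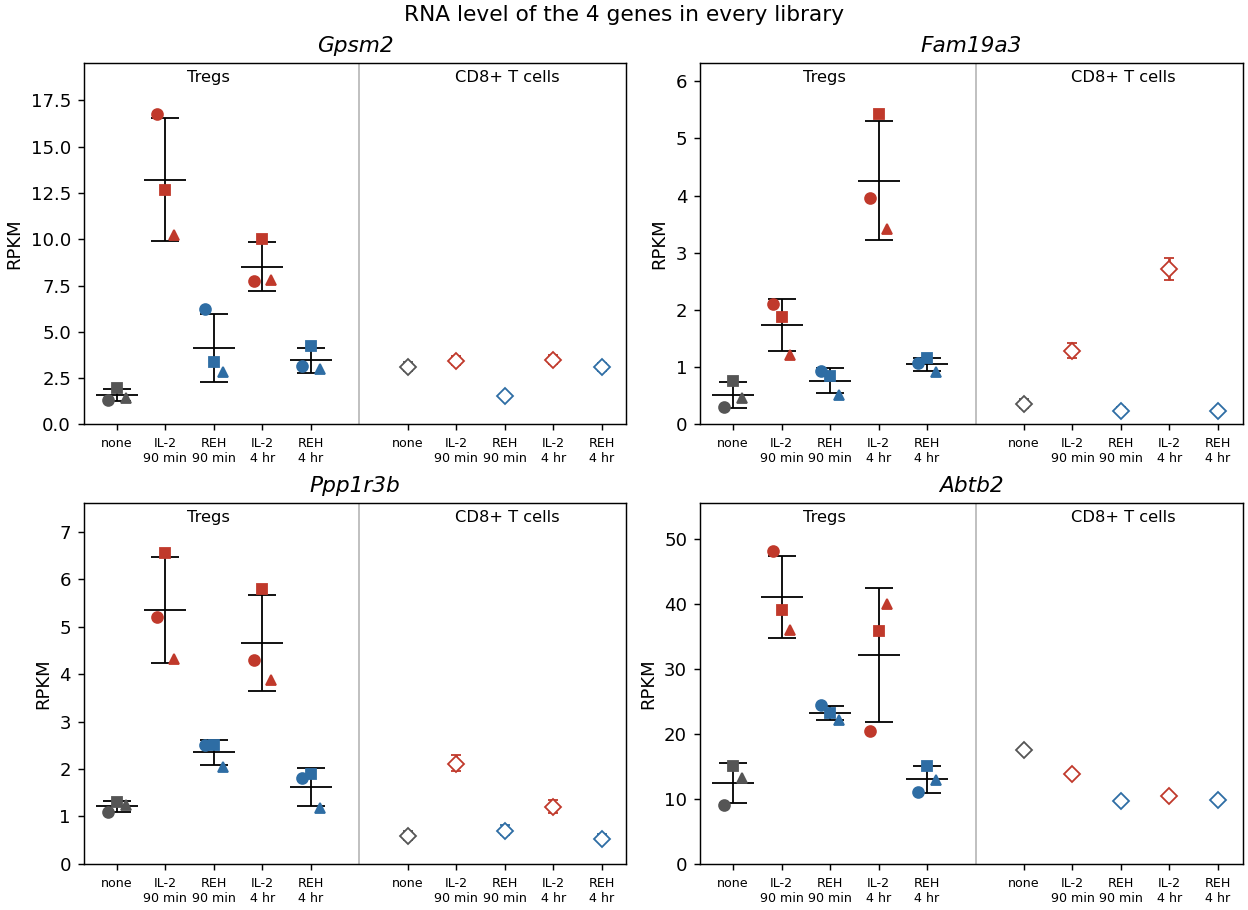
RNA level in RPKM (vertical axis, from 0, scaled per gene) of the 4 genes in each library, by treatment and time. Circles, squares and triangles are Treg replicates 1, 2 and 3, black lines are the mean ± SD of 3 libraries, and open diamonds are single CD8+ T cell libraries with 95% exact Poisson intervals of the read count; in Tregs every IL-2 point lies above every IL-2-REH point of the same time, and Abtb2 in CD8+ T cells is highest unstimulated (17.6 RPKM).

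Over both cytokines, 4 of the 4 genes were thus called higher than in unstimulated Tregs at 90 min. At 4 hr it was 3 of 4, Abtb2 being the exception. Time in culture differed in the same comparisons. Among all 15009 genes tested in edgeR, 0.493% were called higher at 90 min and 1.23% at 4 hr, and with the replicate block, under which Abtb2 also passed, 3.26% were called higher at 4 hr. From 90 min to 4 hr, Fam19a3 rose, as did 4.38% of genes, and Gpsm2 and Abtb2 fell, as did 5.26% of genes. With the replicate block Ppp1r3b fell too, so that all 4 genes passed between the times in one direction or the other, beside 21.2% of genes. The falls of Gpsm2 and Abtb2 did not hold in every pair of the same replicate number. With IL-2-REH, Gpsm2 fell in replicate 1 and went from 3.34 to 4.25 and from 2.84 to 2.98 RPKM in replicates 2 and 3. With IL-2, Abtb2 fell in replicates 1 and 2 and went from 36.1 to 40.1 RPKM in replicate 3. Gpsm2 with IL-2 and Abtb2 with IL-2-REH fell in every pair. The 3 contrasts average both cytokines and are orthogonal to the difference that chose the genes, but they use the same cytokine libraries. The counts of members called are therefore no independent support. Without unstimulated replicate 1, 4 members at 90 min and 3 at 4 hr were called higher, where the shares of all genes called higher grew to 9.06% and 5.01%, with log2 fold changes of 2.34, 1.11, 1.70 and 1.35 at 90 min and 1.81, 1.90, 1.21 and 0.66 at 4 hr for Gpsm2, Fam19a3, Ppp1r3b and Abtb2. Leaving replicate 2 or replicate 3 out of every group left no member past the threshold in any of the 3 contrasts, although the log2 fold changes at 90 min, in the same gene order, came to 2.48, 1.48, 1.52 and 1.53 without replicate 2, and leaving out replicate 3 gave 2.41, 1.41, 1.74 and 1.50. Those 90 min edgeR fits called 0 of 15197 and 0 of 15309 genes, with 614 and 617 at an unadjusted p under 0.05. Both kept unstimulated replicate 1 as 1 of only 2 unstimulated libraries. The contrast between the times, which makes no comparison with unstimulated cells, also called 0 genes in both fits. Why the calls were lost was not tested. DESeq2, run with all libraries, called 861 genes at 90 min.

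**Figure D2:**
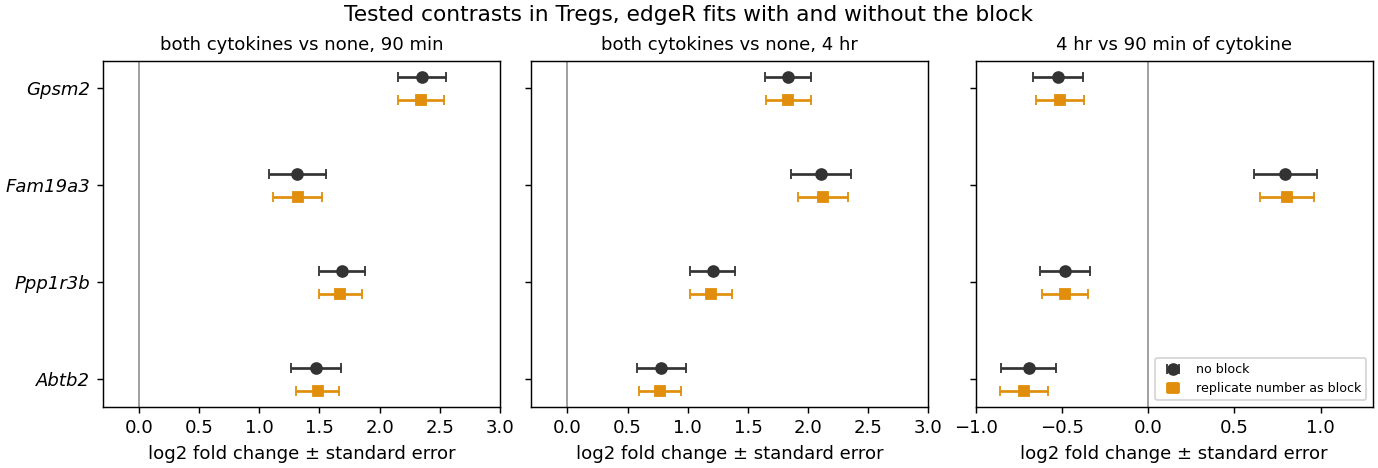
Log2 fold change ± standard error (horizontal axis) of the 4 genes in the 3 tested contrasts over 15 Treg libraries, from edgeR fits without (circles) and with (squares) the replicate number as a block. All values against unstimulated lie above 0, from 0.77 for Abtb2 at 4 hr with the block to 2.36 for Gpsm2 at 90 min without it, and Fam19a3 (0.79 without and 0.80 with the block) alone of the 4 lies above 0 in the contrast between the times.

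The comparison that chose the genes is given by its size. At 90 min, the log2 fold change of IL-2-REH against IL-2 was -1.70 (SE 0.21) for Gpsm2, -1.19 (SE 0.26) for Fam19a3, -1.19 (SE 0.21) for Ppp1r3b and -0.81 (SE 0.23) for Abtb2. At 4 hr it was -1.37 (SE 0.21), -2.08 (SE 0.27), -1.59 (SE 0.21) and -1.38 (SE 0.23) in the same order. The difference was thus smallest for Abtb2 at 90 min and greatest for Fam19a3 at 4 hr. All 4 had IL-2-REH below IL-2 without overlap at both times, as did 3.04% of genes at 90 min and 2.36% at 4 hr. The genes were chosen as lower with IL-2-REH than with IL-2 in Tregs, so this separation is no independent support.

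The name of the set, graded by agonist strength, was checked against unstimulated cells. At 90 min, Gpsm2, Ppp1r3b and Abtb2 had unstimulated below IL-2-REH below IL-2 with no overlap, a pattern held by 0.899% of the genes tested. At 4 hr the genes with that pattern were Gpsm2 and Fam19a3, beside 0.340% of genes. The upper step of this order, IL-2-REH below IL-2, chose the members, and among the genes that met it without overlap the full order was held by 29.6% at 90 min (135 of 456) and 14.4% at 4 hr (51 of 354). The counts are therefore a description of the 4 genes. The first step of the order, all 6 cytokine libraries above the 3 unstimulated ones, held for Gpsm2, Ppp1r3b and Abtb2 at 90 min and for Gpsm2 and Fam19a3 at 4 hr, beside 4.28% of genes at 90 min and 3.30% at 4 hr. Gpsm2 was therefore the one member that was graded without overlap at both times.

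How much of the IL-2 response IL-2-REH reached can be written as the rise in RPKM with IL-2-REH as a percentage of the rise with IL-2. This share uses the values that chose the genes and is a description. For Gpsm2 it was 31.6, 13.1 and 16.1% in replicates 1, 2 and 3 at 90 min and 28.2, 28.5 and 24.4% at 4 hr. For Fam19a3 it was 34.4, 6.76 and 5.67% at 90 min and 21.0, 8.35 and 15.4% at 4 hr, so that replicate 1 stood highest at both times. Ppp1r3b had 34.4, 22.9 and 26.1% at 90 min and 22.3, 12.9 and -2.49% at 4 hr. Abtb2 moved most, from 39.4, 33.7 and 39.5% at 90 min to 17.5, 0.423 and -0.722% at 4 hr. From the group means, the share at 90 min was 22.0% for Gpsm2, 20.1% for Fam19a3, 27.5% for Ppp1r3b and 37.8% for Abtb2, and at 4 hr it was 27.1, 14.3, 11.9 and 3.21%. Shares at the 2 times overlapped for Gpsm2 and Fam19a3 and did not for Ppp1r3b and Abtb2. All shares of a replicate rest on 1 unstimulated library, and without replicate 1 the 90 min share from the means became 14.4% for Gpsm2 and 6.32% for Fam19a3, and that at 4 hr 7.21% for Ppp1r3b and -0.224% for Abtb2.

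**Figure D3:**
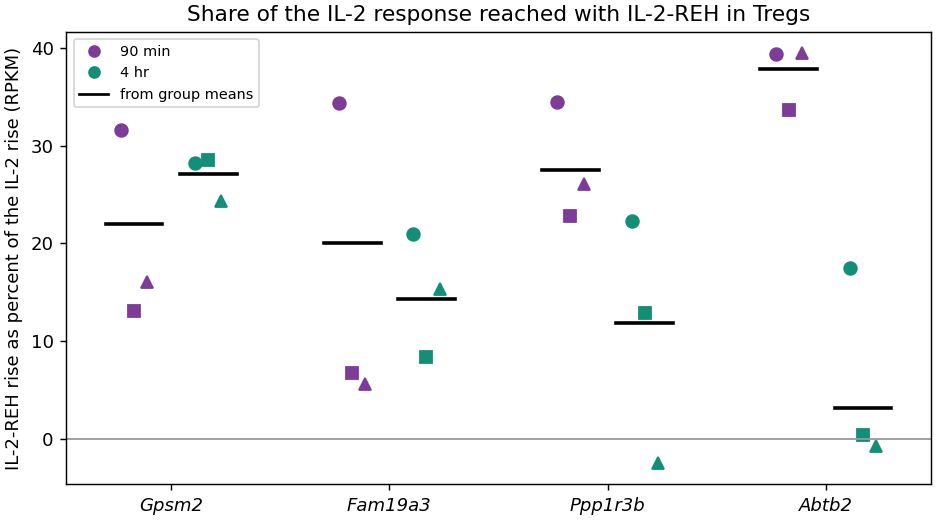
Rise in RPKM over unstimulated with IL-2-REH as a percentage of the rise with IL-2 (vertical axis) for each gene in Tregs, at 90 min (purple) and 4 hr (green). Circles, squares and triangles are replicates 1, 2 and 3 and black lines are shares from group means; Abtb2 goes from 37.8 to 3.21% and Gpsm2 from 22.0 to 27.1%.

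In CD8+ T cells each group had 1 library, so no test was possible, and intervals are 95% exact Poisson intervals of the read counts that cover counting error only. Fam19a3 had the highest RPKM ratio of IL-2 to unstimulated among the 4 genes at 4 hr, and at 90 min its ratio was close to that of Ppp1r3b, with overlapping intervals. It was at 0.358 RPKM unstimulated (95 reads, 0.290 to 0.438), at 1.29 (1.16 to 1.42) and 2.71 (2.53 to 2.91) with IL-2 at 90 min and 4 hr, and at 0.238 (0.183 to 0.304) and 0.233 (0.183 to 0.294) with IL-2-REH. IL-2 libraries therefore held 3.59 times (2.86 to 4.54) and 7.58 times (6.12 to 9.48) the unstimulated RPKM, and both IL-2-REH libraries lay below it. Its Treg means were 3.36 and 8.29 times the unstimulated mean with IL-2 at these times.

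Ppp1r3b was higher with IL-2 in CD8+ T cells as well, going from 0.590 RPKM (0.501 to 0.692) unstimulated to 2.11 (1.95 to 2.29) at 90 min, a ratio of 3.58 (2.996 to 4.30), and 1.21 (1.08 to 1.34) at 4 hr. With IL-2-REH it was at 0.704 RPKM (0.607 to 0.813) at 90 min and 0.533 (0.455 to 0.622) at 4 hr, and both intervals overlapped the unstimulated one. The IL-2-REH rise at 90 min was 7.48% of the IL-2 rise, beside 27.5% in Tregs.

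In unstimulated cells, the single CD8+ T cell value lay outside the range of the Treg libraries for Gpsm2, Ppp1r3b and Abtb2. For Fam19a3 it lay inside that range, at 0.358 RPKM beside 0.309 to 0.765 in Tregs. The unstimulated Treg mean was 0.504 times the CD8+ T cell value for Gpsm2, 1.44 for Fam19a3, 2.055 for Ppp1r3b and 0.706 for Abtb2. Gpsm2 was at 3.12 RPKM (2.89 to 3.36) in unstimulated CD8+ T cells. With IL-2 it was at 3.43 RPKM (3.20 to 3.67) at 90 min and 3.50 (3.27 to 3.75) at 4 hr, with ratios to unstimulated of 1.10 (0.993 to 1.22) and 1.12 (1.01 to 1.245). With IL-2-REH it was at 1.53 RPKM (1.37 to 1.70) at 90 min, below all other CD8+ T cell libraries, and at 3.10 (2.88 to 3.32) at 4 hr. The Treg mean with IL-2 was 3.85 times the CD8+ T cell value at 90 min and 2.44 times at 4 hr.

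Abtb2 was highest in unstimulated CD8+ T cells, at 17.6 RPKM (17.1 to 18.1). It was at 13.8 RPKM (13.4 to 14.2) with IL-2 and 9.67 (9.31 to 10.04) with IL-2-REH at 90 min, and at 10.53 (10.2 to 10.9) and 9.79 (9.46 to 10.1) at 4 hr. All 4 cytokine libraries were thus below the unstimulated one, at 0.784, 0.550, 0.599 and 0.557 times its RPKM, whereas all 6 IL-2 libraries of Tregs were above each of the unstimulated Treg libraries. With IL-2, Abtb2 was higher in all 3 Treg pairs of the same replicate number and lower in the CD8+ T cell pair at both times, as were 2.27% of the 15009 genes at 90 min and 4.14% at 4 hr. With IL-2-REH the genes with that pattern were Gpsm2, Fam19a3 and Abtb2 at 90 min, beside 3.19% of genes, and Gpsm2 and Fam19a3 at 4 hr, beside 4.94%. The difference between the cell types was not tested.

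On the log2(RPKM + 1) scale, which understates changes of low genes, Fam19a3 was the one member with a ratio above 1 in CD8+ T cells, at 1.45 with IL-2 at 4 hr. Of the 10021 genes with a mean of at least 1 RPKM in CD8+ T cells, among which Fam19a3 is not counted because its mean was lower, 1.31% had such a ratio with IL-2 at 4 hr and 2.81% with IL-2 at 90 min, where Ppp1r3b stood at 0.97 and Fam19a3 at 0.75. With IL-2-REH no member passed 1, beside 2.46% of genes at 90 min and 1.78% at 4 hr. Between the cytokines, which in CD8+ T cells took no part in the choice of genes, all 4 log2 ratios of IL-2-REH to IL-2 were below 0, each from 1 pair of libraries. At 90 min they were -0.81 for Gpsm2, -0.88 for Fam19a3, -0.87 for Ppp1r3b and -0.47 for Abtb2, none below -1, beside 0.808% of genes and a median of -0.07 over all genes. Most genes were thus below 0 at 90 min, and 98.6, 98.8, 98.8 and 96.3% had a higher ratio than these members in that order. At 4 hr they were -0.14, -1.59, -0.53 and -0.10, with Fam19a3 below -1 beside 1.68% of genes and a median of 0.08. At that time 77.4, 99.4, 94.1 and 73.5% of genes had a higher ratio. With a pseudocount of 0.1, the 90 min ratios of Gpsm2, Fam19a3 and Ppp1r3b became -1.12, -2.04 and -1.46 and thus fell below -1.

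**Figure D4:**
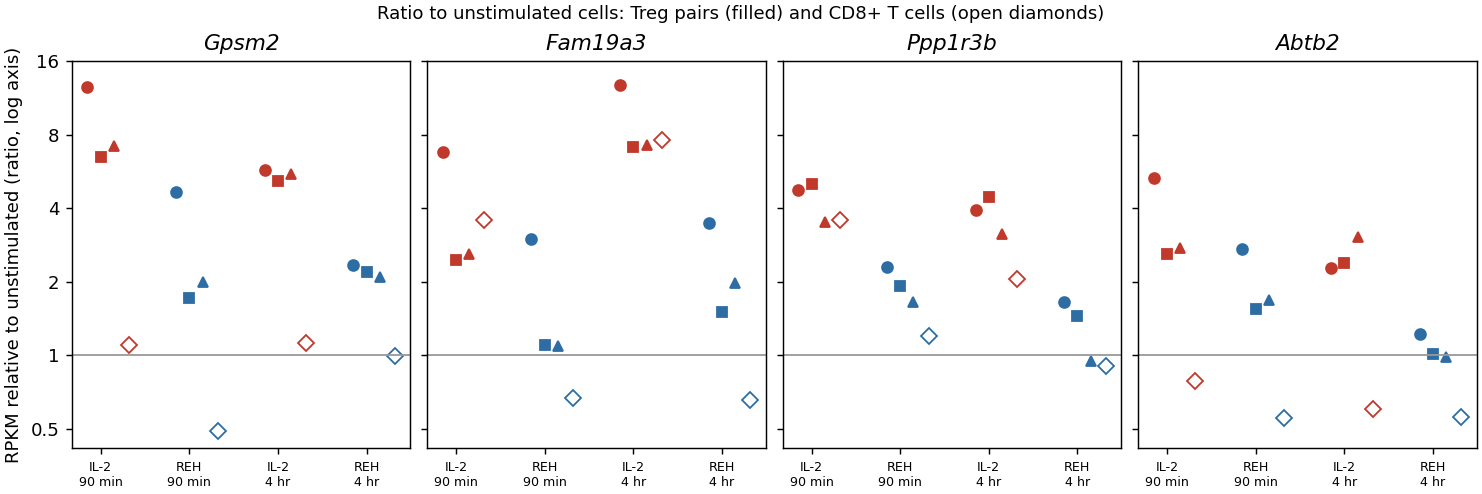
RPKM relative to unstimulated cells (vertical axis, log scale) for each gene, cytokine and time. Filled symbols are Treg replicates 1 (circle), 2 (square) and 3 (triangle), each divided by the unstimulated library of its number, and open diamonds are CD8+ T cells with 1 library per group; for Abtb2 the diamonds lie at 0.550 to 0.784 while the IL-2 Treg points lie at 2.27 to 5.34.

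The members resembled each other to different degrees. Over the 15 Treg libraries, which share 5 treatments and 3 replicate numbers, Pearson's r of log2(RPKM + 1) was 0.944 between Gpsm2 and Ppp1r3b, 0.896 between Ppp1r3b and Abtb2 and 0.891 between Gpsm2 and Abtb2. Fam19a3 was less like the others, with 0.789 to Ppp1r3b, 0.740 to Gpsm2 and 0.629 to Abtb2. These are descriptions over libraries that include those used in the choice.

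Among all 10473 genes with a mean of at least 1 RPKM in Tregs, those most like Gpsm2 were the ubiquitin ligase gene Rnf19b (r = 0.977), Cish (0.969), which encodes a STAT5-induced inhibitor of cytokine signaling, and the ubiquitin-conjugating enzyme gene Ube2h (0.952). For Ppp1r3b they were Cish (0.949), Gpsm2 (0.944) and the thioredoxin reductase gene Txnrd1 (0.937). For Abtb2 they were Trp53bp2 (0.927), which encodes a p53-binding protein, Txnrd1 (0.913) and the anchoring protein gene Akap13 (0.911). For Fam19a3 they were the replication factor gene Ticrr (0.946), the row named Mir704 (0.935) and Cage1 (0.923). Rnf19b had Treg means of 28.3 RPKM unstimulated, 147 and 62.9 with IL-2 and IL-2-REH at 90 min and 101.1 and 46.8 at 4 hr. In CD8+ T cells it was at 12.1, 39.6, 16.6, 26.0 and 11.7 RPKM in the same order, where Gpsm2 had 3.12, 3.43, 1.53, 3.50 and 3.10. Ticrr was at 0.801, 1.79, 0.841, 3.13 and 1.06 RPKM in Tregs and 0.429 to 0.475 in all 5 CD8+ T cell libraries, where Fam19a3 went up to 2.71 RPKM.

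Known targets of IL-2 and STAT5 were measured beside the members. Of 10 such genes, 3 rose over both cytokines at 90 min and 3 at 4 hr in edgeR, and none fell, with a median log2 fold change of 0.97 at 90 min beside -0.06 over all genes and 0.98 at 4 hr beside 0.00. They were Cish, with log2 fold changes of 1.61 and 1.14 (edgeR adjusted p = 0.000615 and 0.00319), Socs1, another inhibitor of cytokine signaling, with 1.76 and 1.83 (edgeR adjusted p = 0.0353 and 0.0135), and Socs2 of the same family with 1.36 and 1.52 (edgeR adjusted p = 0.0232 and 0.00639). With the replicate block Myc, a growth regulator, also passed at both times (edgeR adjusted p = 0.00143 and 0.00325), and Il2ra, the CD25 gene, at 4 hr (edgeR adjusted p = 0.0369). From 90 min to 4 hr Cish fell by 0.47 and Socs3 by 0.77 on the log2 scale (edgeR adjusted p = 0.0375 and 0.0247), in the direction of Gpsm2 and Abtb2. In CD8+ T cells Cish was at 1.87 RPKM unstimulated, 30.6 and 26.1 with IL-2 at 90 min and 4 hr, and 2.47 and 2.45 with IL-2-REH.

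Partners and relatives of the 4 proteins were measured in the same contrasts, in which edgeR called 0.107% of all genes lower at 90 min and, between the times, 4.38% higher and 5.26% lower. For Gpsm2, 14 of 16 listed genes were tested. The list held GoLoco proteins and LGN partners, and also Clcc1, which is neither and was listed because its exons overlap Gpsm2. At 90 min Rgs14, a G protein regulator with a GoLoco motif, fell by 1.16 on the log2 scale (SE 0.24, edgeR adjusted p = 0.0435), the others did not pass, and at 4 hr edgeR and DESeq2 called none, with 2 at an unadjusted p under 0.05. Rgs14 was at 30.6 ± 15.6 RPKM (SD, n = 3) in unstimulated Tregs and at 11.9 ± 3.66 and 12.5 ± 2.74 with IL-2 and IL-2-REH at 90 min, and in CD8+ T cells at 22.1, 7.76 and 6.81. Between the times Gnai3, an inhibitory G protein alpha subunit, fell by 0.56 (edgeR adjusted p = 0.0471), and with the replicate block Gpsm3 rose by 0.54 (edgeR adjusted p = 0.0249). The list's medians were -0.09 at 90 min, 0.19 at 4 hr and 0.30 between the times, beside -0.06, 0.00 and 0.04 over all genes.

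For Ppp1r3b, 7 of 9 other glycogen-targeting and catalytic subunits of protein phosphatase 1 and 20 of 21 glycogen enzymes were tested, and edgeR called none against unstimulated cells. At an unadjusted p under 0.05 there were 1 subunit and 4 enzymes at 90 min and 0 and 2 at 4 hr, and DESeq2 called 1 enzyme at 4 hr. With the replicate block the glycogen phosphorylase gene Pygm was called higher at 4 hr (log2 fold change 1.04 and adjusted p = 0.0683 without the block, 0.0386 with it, edgeR). Ppp1cb, a catalytic subunit, fell by 0.87 from 90 min to 4 hr (edgeR adjusted p = 0.0287), from means of 59.1 and 52.2 RPKM with IL-2 and IL-2-REH to 32.2 and 34.8. Ppp1cc, another catalytic subunit, changed by -0.50 and passed with the replicate block (edgeR adjusted p = 0.0291). Over the same interval 3 of the 20 glycogen enzymes rose, beside 4.38% of all genes, namely glycogen synthase Gys1 by 1.18 and the phosphorylases Pygb by 0.64 and Pygm by 1.16 on the log2 scale (edgeR adjusted p = 0.0204, 0.0187 and 0.0187), while Ppp1r3b changed by -0.48. With the replicate block, under which 10.2% of all genes rose, Phka2 and Pgm2 also did. The glycogen enzymes had a median of -0.13 at 90 min, 0.04 at 4 hr and 0.33 between the times, and the phosphatase subunits -0.23, 0.06 and 0.41.

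For Abtb2, 7 BTB relatives and CUL3 ligase components were tested and edgeR called none against unstimulated cells, with 0 at 90 min and 3 at 4 hr at an unadjusted p under 0.05 and 2 called by DESeq2 at 4 hr. The replicate block called the close relative Btbd11 lower at 4 hr (log2 fold change -0.91, edgeR adjusted p = 0.00857, and 0.1035 without the block). Cul3 fell by 0.71 between the times (edgeR adjusted p = 0.0393), and the replicate block added Btbd11 (-0.82, edgeR adjusted p = 0.00948). The list's median was 0.02 at 90 min, -0.01 at 4 hr and -0.14 between the times. Of the 4 other Fam19a genes, 2 had enough reads to be tested, Fam19a1 and Fam19a2, at group means of at most 0.155 RPKM in Tregs. Neither passed in edgeR without the block, in DESeq2 or at an unadjusted p under 0.05, and with the replicate block Fam19a2 passed between the times (log2 fold change 1.70, edgeR adjusted p = 0.0477).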

How the data were processed

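RNA was sequenced from 15 Treg and 5 CD8+ T cell libraries. The authors aligned reads with Bowtie2 (2.2.6) and TopHat2 (2.1.1) to mm10, and the submitters' notes also name SAMtools (0.1.8), bedtools (2.25.0) and edgeR. The deposited files give, per RefSeq transcript, a read count and the authors' RPKM value. Where a symbol had several transcripts, that with the highest summed read count was used. Counts of the 15 Treg libraries were filtered by group (filterByExpr), TMM-normalised and fitted in edgeR (4.0.16, R 4.3.3) with 1 mean per group, quasi-likelihood tests and Benjamini-Hochberg adjustment over 15009 genes, with a threshold of 0.05. Standard errors are the absolute log2 fold change divided by the square root of the test's F. DESeq2 (1.42.0), limma (3.58.1) on log2(RPKM + 1) or log2(RPKM + 0.1) and other filters were alternatives. Tested on simulated counts for the 4 hr contrast (15009 genes, 200 changed), the fit recovered 23% of 2-fold and 71% of 4-fold changes, with 4.08% false calls. CD8+ T cell RPKM values were compared without a test. Statistics used Python 3.11.15 with scipy 1.17.1.

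Same-numbered Treg libraries deviated together from their group means (30 pairs, correlations 0.121 to 0.839, mean 0.538). The 60 differently numbered pairs ranged from -0.664 to 0.301. Deviations from a group mean cancel within the group, so these values are tied to the same-numbered ones and add no separate evidence. The replicate numbers were taken to pair the libraries, and a fit with the number as a block is given where it changes a call. The pairing comes from the title numbers and this check. Counting intervals at 95% do not cover biological spread.

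Genes named are the 4 members, genes whose exons overlap theirs, the 3 genes most correlated with each member over Treg libraries, and, from lists of partners, relatives and IL-2 targets, those past the threshold or at the highest level. Ramp3 was chosen after its values were seen. Members and lists were chosen with earlier results of these data known.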

Additional observations from a re-analysis of the deposited data

Results flagged for a closer look

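Levels with cytokine, averaged over IL-2 and IL-2-REH, were called different between 4 hr and 90 min in Tregs for 3 of the 4 genes. In that contrast edgeR called 9.65% of the 15009 genes tested. The log2 fold change at 4 hr minus that at 90 min was -0.524 for Gpsm2, 0.794 for Fam19a3 and -0.692 for Abtb2, each past the threshold in the edgeR contrast between the times. These calls did not hold in every fit. Limma on log2(RPKM + 1) kept 1 of them and on log2(RPKM + 0.1) none. The edgeR fits without replicate 2 or without replicate 3 kept none either.

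In 7 cases every Treg pair of the same replicate number moved one way against unstimulated cells and the single CD8+ T cell pair moved the other way. All 7 were higher in Tregs and lower in CD8+ T cells. Among the 15009 genes, IL-2 gave that pattern in 2.27% at 90 min and 4.14% at 4 hr. The shares for IL-2-REH were 3.19% and 4.94%. Centring libraries on their medians removed the Gpsm2 case at 4 hr, whose CD8+ T cell log2 ratio became 0.02. With IL-2-REH, Gpsm2 was higher in all 3 Treg pairs at both times, and in CD8+ T cells its RPKM ratio to unstimulated was 0.490 (0.429 to 0.560, 95% counting interval) at 90 min and 0.993 (0.894 to 1.10) at 4 hr, the latter not distinguishable from 1. Fam19a3 was higher with IL-2-REH in all 3 Treg pairs at both times, although at 90 min the pairs of replicates 2 and 3 differed by 1.098 and 1.091 times, with overlapping counting intervals, and its CD8+ T cell ratio was 0.665 (0.476 to 0.922) at 90 min and 0.652 (0.474 to 0.894) at 4 hr. Abtb2 was higher in all 3 Treg pairs with IL-2 at both times and with IL-2-REH at 90 min, while its CD8+ T cell ratio was 0.784 (0.753 to 0.817) and 0.599 (0.573 to 0.627) with IL-2 at 90 min and 4 hr and 0.550 (0.525 to 0.577) with IL-2-REH at 90 min. The difference between the cell types was not tested in any of these, since CD8+ T cells had 1 library per group.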

How the results depend on the processing

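Every log2 fold change of the 4 members against unstimulated Tregs and between the times kept its direction under all alternatives run. The number of members past the threshold (4 at 90 min, 3 at 4 hr, 3 between the times) ranged from 0 to 4 over fits that left out 1 replicate number or 1 unstimulated library, and the 0 came from leaving out replicate 2 or replicate 3 in all 3 contrasts. Between the times it was 1 in limma on log2(RPKM + 1) and 0 on log2(RPKM + 0.1), with 580 of 10473 genes called there and 3157 at an unadjusted p under 0.05. Fam19a3 at 90 min also lost its call in both limma fits (0.53, adjusted p = 0.151, and 1.06, adjusted p = 0.139) and with only the groups compared (1.31, adjusted p = 0.0982, edgeR). Over all genes, edgeR called 90 at 90 min, 491 at 4 hr and 1448 between the times, 404, 1405 and 3183 with the replicate block, and 861, 1296 and 2877 with DESeq2. The calls at 90 min split into 74 higher and 16 lower in edgeR, 201 and 203 with the replicate block and 427 and 434 in DESeq2. Limma called 258 at 4 hr and 673 between the times on log2(RPKM + 1) and 223 and 580 on log2(RPKM + 0.1), and only the groups compared gave 49 and 145 against unstimulated cells. Without replicate 1 the counts were 3533, 2605 and 3350, and without unstimulated replicate 1 they were 2770 and 1804 against unstimulated cells. Without replicate 2 or replicate 3 they were 0 to 5, and without unstimulated replicate 2 or 3 they were 27 and 24 at 90 min and 138 and 84 at 4 hr. The IL-2-REH share of the IL-2 response for Abtb2 at 4 hr, 3.21%, reversed to -0.224% without replicate 1, and ranged up to 6.50%. CD8+ T cell ratios kept their direction except that of Gpsm2 with IL-2-REH at 4 hr, which was -0.01 and 0.02 with libraries centred on their medians. Fam19a3 in CD8+ T cells rested on 64 to 95 reads outside the IL-2 groups, which limits its ratios. Why results changed between these alternatives was not tested.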
